A study of Homo sapiens with 18 samples.

Results

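Loss of beta-globin was followed in HUDEP-2 cells. HUDEP-2 is an immortalized human cell line of cord blood origin that can be driven toward red cells in culture and expresses chiefly adult beta-globin. The comparison is between cells in which the HBB gene was disrupted (HBBko) and unedited cells (WT), both taken after 5 d of erythroid differentiation. It uses 6 of the 18 RNA-seq libraries of the study, 3 per line, chosen by their labelled genotype and stage. The other libraries hold the same lines undifferentiated and after 48 h, and the 48 h libraries are used below for 1 test. Both lines share the HUDEP-2 background, and the labels give no treatment beyond differentiation. The labels do not give the number of clones behind the HBBko line, the edit that was made, or whether the triplicates were started independently, so p values here measure the spread between these libraries, which may be technical.

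Hemoglobin pairs alpha-like with beta-like globin chains. The beta-like genes lie in a cluster on chromosome 11 in the order in which they are used in development, from embryonic HBE1 through the fetal pair HBG1 and HBG2 to adult HBD and HBB, while the alpha-like genes HBZ, HBA2 and HBA1 lie on chromosome 16. When beta-like chains run short, as in beta-thalassemia, free alpha chains and heme burden the maturing cell. One sensor of such stress in erythroid cells is the kinase EIF2AK1 (HRI), which phosphorylates eIF2alpha, slows general translation and raises translation of the transcription factor ATF4. The question that the series title puts is how ATF4 and MYB relate to gamma-globin in cells that lack beta-globin.

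Values are TPM as deposited, which the authors had also scaled between libraries (scaled TPM). Of 35616 genes in the table, 22807 were above 0 in at least 1 of the 6 libraries and 10601 were tested, those that reached 1 scaled TPM in 3 or more of them. The test was limma on log2(scaled TPM + 1). Genes with a Benjamini-Hochberg adjusted p under 0.05 are said to have risen or fallen. The number of reads behind each library is unknown. Library sums ran from 1152839 to 1183462 scaled TPM in HBBko and from 1456799 to 1508342 in WT, and 10410 to 10493 genes reached 1 scaled TPM in each. Libraries correlated at 0.994 to 0.995 within a line and at 0.971 to 0.976 between lines, across the tested genes, which are not independent replicates.

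HBB was the first check of the labels. It lies at chr11:5225464-5227071 (GRCh38). Its level was 69004, 70764 and 72650.4 scaled TPM in the 3 HBBko libraries and 431427, 427628 and 458719 in the 3 WT libraries. HBB mRNA was thus lower in every HBBko library than in any WT library but was still among the most abundant transcripts of HBBko cells. The means were 70806 ± 1823 (SD, n = 3) and 439258 ± 16960.1 (SD, n = 3), a 6.2-fold difference (log2 fold change -2.63 ± 0.08 SE, adjusted p = 7.4e-07, limma). The size depends on the scale: rescaling each library to the same sum gave -2.30 and quantile normalization gave -1.42, with HBB lower in HBBko in each. The values count HBB transcripts and do not tell an edited from an intact transcript, and in bulk RNA a smaller number of cells with a transcript cannot be told apart from less of it per cell.

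The difference between the lines reached most of the expressed genes, at small size. At an adjusted p under 0.05 in limma, 5945 genes differed (56.1% of those tested), 3074 higher in HBBko (29.0%) and 2871 lower (27.1%). Most of these calls, 4486 (75.5%), were under 1.5-fold. Past a 2-fold change, 119 genes were higher (1.12%) and 297 were lower (2.8%). The 3 values of one line did not overlap those of the other for 6744 genes (63.6%). In the authors' deposited table for 5 d, 6401 of 14783 genes had a q value under 0.05, 3241 higher and 3160 lower in HBBko. Of 5775 genes called here that are also in the authors' deposited table with a q value, 5383 (93.2%) had a q value under 0.05 there, all with the same sign.

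**Figure D1:**
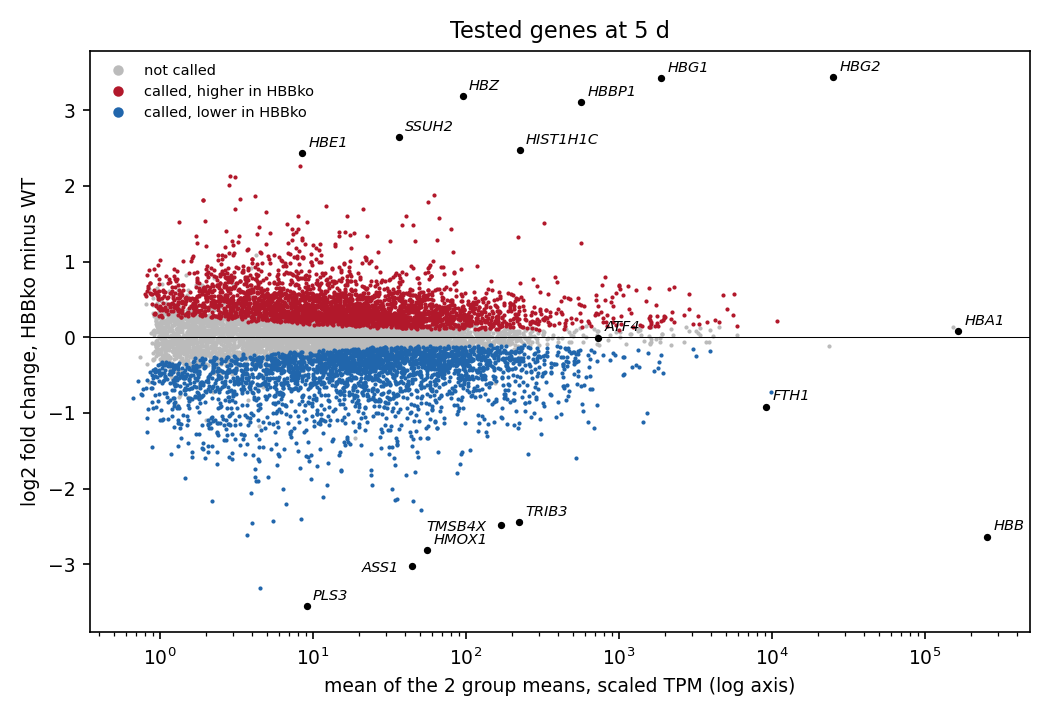
Log2 fold change, HBBko minus WT at 5 d, on the vertical axis against the mean of the group means in scaled TPM (log axis) for the 10601 tested genes. Red and blue points are genes called higher and lower, gray points are not called, and black points are labelled; the gamma-globin genes stand at the top at log2 fold changes of 3.42 and 3.43, and HBB is the most abundant gene that was lower.

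Of the rescalings run, only that to equal library sums moved the split between higher and lower genes far. The deposited values kept a median log2 fold change of 0.02 over all tested genes. Rescaling each library to a sum of 1000000 moved that median to 0.32 and gave 6649 genes higher and 1101 lower. Globin genes, which enter that sum, were 51.3% of all signal in WT and 39.4% in HBBko. Rescaling after leaving out the globin genes gave 3303 higher and 2708 lower, with a median of 0.04, and median-of-ratios scaling gave 2873 higher and 3030 lower. Directions below are on the deposited scale, and those that turn under equal sums are named with their values.

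Globins that precede HBB in development rose. HBG2 stood at 39927, 49323 and 48863 scaled TPM in HBBko and at 4103, 3319.6 and 5582 in WT. The groups did not overlap, and the lowest HBBko library was several times the highest WT library. The mean rose 10.6-fold (log2 fold change 3.43 ± 0.17 SE, adjusted p = 3.4e-06, limma). HBG1, the other gamma-globin gene, stood at 3183, 3642 and 3521 in HBBko against 301, 264 and 416 in WT, a 10.5-fold rise (3.42 ± 0.14 SE, adjusted p = 2.1e-06). The pair lies at chr11:5253188-5254781 and chr11:5248269-5249857 (GRCh38) and is nearly identical in sequence, so how reads were divided between the members is uncertain. HBG2 made up 93.0% ± 0.347 of their sum in HBBko and 93.0% ± 0.287 in WT (SD, n = 3; exact permutation p = 0.8).

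The embryonic genes moved with the gamma genes. HBE1, embryonic epsilon-globin, read 12.2, 18.1 and 14.6 scaled TPM in HBBko against 1.72, 2.03 and 2.07 in WT, and its mean was 7.73-fold higher (log2 fold change 2.43 ± 0.13 SE, adjusted p = 4.6e-06, limma). HBZ, embryonic zeta-globin of the alpha cluster at chr16:152644-154503, read 141, 218 and 159.9 against 16.0, 19.2 and 18.2, a 9.72-fold rise (3.19 ± 0.14 SE, adjusted p = 2.4e-06). Neither gene overlapped between the lines. HBBP1, a transcribed pseudogene that lies between HBD and HBG1 in the cluster, read 1066, 946 and 1027 against 129.6, 117 and 105 (8.63-fold higher, adjusted p = 3.4e-07). All of these stayed far below HBG2.

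The adult minor gene HBD went the other way by a small margin. It read 482, 473 and 465 scaled TPM in HBBko and 538, 549 and 540.4 in WT, without overlap (log2 fold change -0.20 ± 0.03 SE, adjusted p = 0.0013, limma). That call depends on the scale: equal library sums turned it to 0.14 (adjusted p = 0.011) and quantile normalization gave -0.06 (adjusted p = 0.21). With the spread taken over all 18 libraries the adjusted p was 0.19. Of the 6 beta-like genes and pseudogene, 4 rose and 2 fell, against 29.0% and 27.1% of all tested genes.

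The adult alpha genes lay close together in the lines on the deposited scale. HBA1 read 167689, 170353 and 173586 scaled TPM in HBBko and 161126, 158753 and 164031 in WT. HBA2 read 158141, 159143 and 165665 against 145361, 143241 and 151856. Both pairs of groups lay apart by a few percent, and neither passed the test on the deposited scale (log2 fold changes 0.08 and 0.13, adjusted p = 0.37 and 0.15, limma); both passed as higher under equal sums (0.42 and 0.47, adjusted p = 0.00082 and 0.00039) and under quantile normalization (0.76 and 0.66). HBA1 and HBA2 encode the same protein and their split is uncertain as for the gamma genes. HBM, mu-globin, rose from 4524 ± 279 to 6746 ± 313 (SD, n = 3; log2 fold change 0.58, adjusted p = 7.7e-05), and HBQ1, theta-globin, fell from 215 ± 10.2 to 163 ± 6.32 (-0.40, adjusted p = 0.00019), although under equal sums HBQ1 no longer passed (-0.07, adjusted p = 0.24). AHSP, the chaperone of free alpha chains, read 5927, 6019 and 6525 against 4959, 4954 and 5077 (0.30 ± 0.05 SE, adjusted p = 0.001), a rise that turned to -0.04 (adjusted p = 0.38) under quantile normalization.

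**Figure D2:**
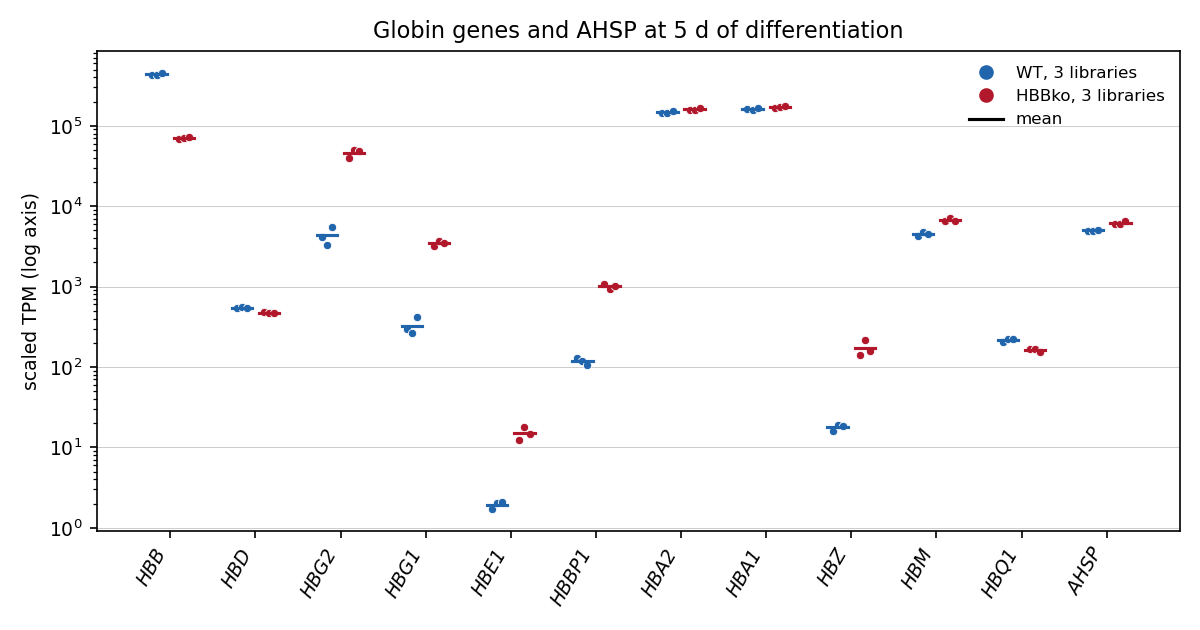
Scaled TPM (log axis) of the globin genes, the pseudogene HBBP1 and AHSP in each of the 6 libraries at 5 d; points are libraries and bars are group means. HBB is lower and HBG2, HBG1, HBE1, HBBP1 and HBZ are higher in all 3 HBBko libraries, while HBA1 and HBA2 differ little between the lines.

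Summed over the cluster, gamma-globin mRNA did not make up for HBB mRNA. HBG1 and HBG2 together rose from 4662 ± 1228 to 49486 ± 5529 scaled TPM (SD, n = 3; 10.6-fold), while the sum of HBB, HBD, HBG1, HBG2 and HBE1 fell from 444464 ± 18156 to 120781 ± 7106. Gamma-globin was 1.01%, 0.83% and 1.29% of beta-like signal in WT and 38.3%, 42.6% and 41.7% in HBBko. HBB still made up 61.3%, 57.0% and 57.9% of it in HBBko, against 98.9%, 99.0% and 98.6% in WT. The ratio of alpha-like (HBA1, HBA2, HBZ) to beta-like mRNA was 2.89, 2.65 and 2.70 in HBBko and 0.702, 0.699 and 0.679 in WT. As shares of all signal, HBB fell from 29.8% to 6.06%, gamma-globin rose from 0.315% to 4.23%, HBA1 and HBA2 together went from 20.9% to 28.4%, and all globin genes went from 51.3% to 39.4%. In 16 of the 17 shares, ratios and sums computed, the libraries of the lines did not overlap, each with an exact two-sided permutation p of 0.1 (0.106 after Benjamini-Hochberg adjustment), and 0.1 is the smallest p that 3 libraries against 3 allow.

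Known repressors of gamma-globin were lower as single genes rather than as a class. BCL11A, which silences the gamma genes in adult erythroid cells, read 12.4, 12.8 and 11.9 scaled TPM in HBBko against 21.6, 19.1 and 24.7 in WT, 1.77-fold lower without overlap (log2 fold change -0.77 ± 0.09 SE, adjusted p = 0.00017, limma). NFIX, a factor also tied to gamma silencing, fell from 138 ± 5.44 to 80.5 ± 1.84 (SD, n = 3; -0.76, adjusted p = 5.1e-06), and RCOR1, a corepressor, from 46.7 ± 0.581 to 30.4 ± 1.21 (-0.60, adjusted p = 2.1e-05). NFIA fell by 0.39 on the log2 scale (adjusted p = 0.00027), a call lost under equal sums (-0.06, adjusted p = 0.36). HDAC1, a deacetylase of these complexes, rose from 58.1 ± 1.6 to 83.9 ± 4.14 (0.52, adjusted p = 5.3e-05). Among 25 repressors and corepressors, 5 rose and 9 fell, shares of the order of the background of 29.0% and 27.1%, with a median log2 fold change of -0.09 that became 0.22 under equal sums.

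ZBTB7A, the other main gamma repressor, read 59.2, 54.2 and 63.6 scaled TPM in HBBko and 72.5, 69.2 and 75.3 in WT (log2 fold change -0.29 ± 0.06 SE, adjusted p = 0.0043, limma), which equal sums turned to 0.04 (adjusted p = 0.56). KLF1, the erythroid factor that drives HBB and BCL11A, read 1086, 1003 and 1056 against 1376, 1326 and 1429 (-0.39 ± 0.05 SE, adjusted p = 0.00016); under equal sums this was -0.06 (adjusted p = 0.29). MYB, named in the series title and a regulator of erythroid proliferation, read 8.67, 8.5 and 9.15 against 9.99, 11.2 and 10.4. All 3 HBBko values lay under the WT values, by 1.20-fold in the mean (-0.24 ± 0.07 SE, adjusted p = 0.016). That call was lost without HBBko replicate 2 (adjusted p = 0.054) or WT replicate 2 (adjusted p = 0.055), and equal sums turned the difference to 0.07 (adjusted p = 0.38). GATA1, the master erythroid factor, overlapped between the lines (332 ± 11.7 against 316 ± 10.4, SD, n = 3; 0.07, adjusted p = 0.19), but passed under equal sums (0.41) and quantile normalization (0.19).

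Of 18 erythroid transcription factors, 6 rose and 10 fell, against 29.0% and 27.1% of all tested genes, and under equal sums 11 rose and 4 fell. LDB1 and LMO2, parts of the complex that links GATA1 and TAL1, rose from 108 ± 8.43 to 169 ± 7.95 and from 117 ± 4.62 to 180.4 ± 1.18 (SD, n = 3; log2 fold changes 0.64 and 0.62, adjusted p = 6.3e-05 and 9.4e-06, limma). MXI1, an antagonist of MYC that rises late in red cell maturation, fell from 227 ± 8.16 to 118 ± 4.13 (-0.94, adjusted p = 2.7e-06), and LYL1 fell from 284 ± 9.6 to 188 ± 4.28 (-0.59, adjusted p = 1.1e-05). The list's median of -0.19 became 0.15 under equal sums.

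The list of the fetal programme holds RNA-binding proteins of the LIN28 and IGF2BP families and the DNA-binding factor ARID3A. IGF2BP2 fell from 85.7 ± 5.46 to 39.3 ± 2.39 scaled TPM (SD, n = 3), 2.18-fold lower without overlap (log2 fold change -1.11 ± 0.06 SE, adjusted p = 4.9e-06, limma). All 4 members of that list that passed the filter were lower on the deposited scale, against 27.1% of all tested genes. They were IGF2BP2, IGF2BP1 (-0.37), IGF2BP3 (-0.25) and ARID3A (-0.28). Under equal sums IGF2BP2 alone still fell, IGF2BP1 was at -0.07, IGF2BP3 at 0.06 and ARID3A at 0.05. The IGF2BP1 call was lost without WT replicate 2 (adjusted p = 0.059) or WT replicate 3 (adjusted p = 0.071).

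ATF4 mRNA was level between the lines at 5 d. It read 792, 688 and 712 scaled TPM in HBBko and 742, 701 and 753 in WT, fully overlapping (means 731 ± 54.5 and 732 ± 27.2, SD, n = 3; log2 fold change -0.00 ± 0.06 SE, adjusted p = 0.95, limma). Under equal sums it was 0.33 higher (adjusted p = 0.001), near the shift of all genes. ATF4 activity is set largely by translation of its mRNA, which these data do not measure. EIF2AK1, the HRI kinase, fell from 579 ± 21.8 to 463 ± 14.5 (SD, n = 3; -0.32, adjusted p = 0.00033), which equal sums turned to 0.01 (adjusted p = 0.78). PPP1R15A (GADD34), the stress-induced subunit that reverses eIF2alpha phosphorylation, overlapped between the lines (486 ± 15.7 against 461 ± 16.3; 0.07, adjusted p = 0.16), and passed under equal sums (0.41) and quantile normalization (0.22). Of 14 tested genes in the list that holds both, 5 rose and 1 fell (EIF2AK1), against 29.0% and 27.1% of all tested genes. The median log2 fold change was 0.10 (equal sums: 13 rose, 0 fell, median 0.43). EIF2B3, EIF2B2, EIF2S3 and EIF2B1 rose by 0.64, 0.37, 0.29 and 0.26 on the log2 scale.

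Genes that ATF4 is known to activate were lower in HBBko. Of 50 tested members of the ATF4 target list, 41 fell and 0 rose, against 27.1% and 29.0% of all tested genes, and the median log2 fold change was -0.56. Under equal sums 26 fell, 11 rose and the median was -0.23, and under quantile normalization 37 fell and 0 rose. Of 8 tested ATF4 partners and related stress factors, 7 fell, with ATF4 itself the exception, and the median was -1.07 (equal sums: 7 fell, 1 rose, median -0.74). TRIB3 is counted in both lists.

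TRIB3, a pseudokinase target that feeds back on ATF4, read 72.5, 77.7 and 57.3 scaled TPM in HBBko and 387, 353 and 392 in WT. Every HBBko library lay far under every WT library (5.46-fold lower in the mean, log2 fold change -2.44 ± 0.10 SE, adjusted p = 2.1e-06, limma). DDIT3 (CHOP), a proapoptotic partner of ATF4, read 32.4, 33.6 and 27.8 against 84.0, 77.7 and 77.6 (-1.33 ± 0.07 SE, adjusted p = 4.9e-06). ATF3 fell from 76.5 ± 2.13 to 33.1 ± 4.32, CEBPB from 79.7 ± 5.26 to 37.3 ± 4.36 and CEBPG, which pairs with ATF4 at amino acid response genes, from 98.2 ± 5.03 to 46.4 ± 4.12 (SD, n = 3; log2 fold changes -1.19, -1.08 and -1.07). Groups did not overlap for any of these 5 genes, nor for 63.6% of all tested genes.

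Among the targets with other roles, STC2, a secreted glycoprotein, read 1.84, 1.95 and 1.38 scaled TPM in HBBko against 12, 11.1 and 11.5 in WT (6.68-fold lower, log2 fold change -2.21, adjusted p = 2.4e-06, limma). SESN2, which restrains mTORC1 when amino acids run low, read 40.8, 42.8 and 33.6 against 139, 130.1 and 142 (3.50-fold lower). PHGDH, the first enzyme of serine synthesis, fell from 19.6 ± 2.02 to 5.53 ± 0.941 and GPT2, mitochondrial alanine aminotransferase, from 48.6 ± 3.39 to 17.2 ± 0.615 (SD, n = 3; -1.66 and -1.45). The targets named here were lower while ATF4 mRNA was not, but they were picked as the largest called changes of the list. The most abundant targets that were not called, TARS and CBS, were at -0.10 and -0.06 (adjusted p = 0.066 and 0.33, limma).

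Some of these genes carry the ATF4 and C/EBP composite element directly before their start. The letters TGATGNAA, on either strand, were searched in the 250 bases before the RefSeq start (GRCh38.p14) of the 32 list genes in the promoter table, and 7 held them, against 3.89% of all 27305 genes in it. The 7 were ASNS, CHAC1, FGF21, GOT1, HERPUD1, MTHFD1L and SLC1A5. The 4 windows below are a choice from these, all in genes that fell on the deposited scale. FGF21, GOT1 and MTHFD1L are not shown and their values are not given here. Capitals mark the match, TTGCATCA being the element read on the other strand, and each window is printed on the strand of its gene.
CHAC1 (chr15:40953232-40953299, plus strand): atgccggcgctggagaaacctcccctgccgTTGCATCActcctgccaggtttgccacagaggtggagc
ASNS (chr7:97872439-97872506, minus strand): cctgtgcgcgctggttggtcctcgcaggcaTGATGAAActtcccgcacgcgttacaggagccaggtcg
HERPUD1 (chr16:56931936-56932003, plus strand): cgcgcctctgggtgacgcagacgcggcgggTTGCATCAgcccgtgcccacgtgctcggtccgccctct
SLC1A5 (chr19:46784874-46784941, minus strand): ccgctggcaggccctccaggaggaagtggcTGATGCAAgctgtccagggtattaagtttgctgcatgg

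The genes behind these windows differed in the size of the change. CHAC1, which degrades glutathione, read 160.0, 125 and 112 scaled TPM in HBBko against 315, 283 and 309.8 in WT (log2 fold change -1.20 ± 0.11 SE, adjusted p = 5.8e-05, limma). HERPUD1, of the ER degradation machinery, fell from 106 ± 3.29 to 64.5 ± 3.51 (SD, n = 3; -0.71, adjusted p = 1.3e-05). ASNS, asparagine synthetase, read 489.6, 473 and 419 against 631, 624 and 620.0 (-0.44, adjusted p = 0.00029), which under equal sums was -0.11 (adjusted p = 0.17). SLC1A5, a glutamine transporter, fell by 0.26 (adjusted p = 0.0018), which equal sums turned to 0.08 (adjusted p = 0.19). A match of these letters is a description of the sequence and not a bound site.

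Most chaperones of the cytosol rose. Of 28 cytosolic heat shock chaperones and CCT subunits, 23 rose and 1 fell, against 29.0% and 27.1% of all genes, with a median log2 fold change of 0.47. The one that fell was HSF1, the factor that drives heat shock genes, at -0.14 (adjusted p = 0.023, limma), a call lost without HBBko replicate 1 or 3 or WT replicate 2 or 3 (adjusted p 0.0503 to 0.0714) and turned to 0.19 by equal sums. BAG3, a cochaperone of HSP70 in selective autophagy, read 27.6, 23.0 and 25.7 scaled TPM in HBBko against 9.93, 8.86 and 9.28 in WT (2.72-fold higher, 1.35 ± 0.08 SE, adjusted p = 5.4e-06). HSP90AB1, the constitutive HSP90, read 486, 489 and 509.6 against 286, 301 and 307 (0.73 ± 0.04 SE, adjusted p = 4.9e-06). HSPA8, the constitutive HSP70, read 1228, 1139 and 1356 against 785, 785 and 811 (0.64 ± 0.06 SE, adjusted p = 5.6e-05). HSPH1 rose from 26.9 ± 0.359 to 47.3 ± 5.48 and CCT3, a subunit of the actin and tubulin folding ring, from 109 ± 2.95 to 183 ± 5.83 (SD, n = 3).

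The heat shock element was searched in the same way, as the units GAA, TTC and GAA with any 2 bases between neighbors, and 5 of 25 list genes in the promoter table held it against 0.557% of all genes. Windows of the genes that rose are shown with the match in capitals, and adjoining matches of CHORDC1 run together (TTC, GAA and TTC is the element read on the other strand).
HSPA8 (chr11:123062324-123062386, minus strand): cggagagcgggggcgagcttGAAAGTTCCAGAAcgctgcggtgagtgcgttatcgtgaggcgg
HSP90AA1 (chr14:102087090-102087162, minus strand): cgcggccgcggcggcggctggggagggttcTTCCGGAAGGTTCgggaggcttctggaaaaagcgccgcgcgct
HSP90AB1 (chr6:44247748-44247820, plus strand): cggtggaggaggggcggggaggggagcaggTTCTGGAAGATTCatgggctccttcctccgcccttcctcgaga
CHORDC1 (chr11:90223067-90223139, minus strand): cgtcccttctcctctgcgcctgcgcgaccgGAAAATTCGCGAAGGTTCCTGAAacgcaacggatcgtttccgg
HSP90AA1, the inducible HSP90, rose from 392 ± 11.2 to 561 ± 62.0 scaled TPM (SD, n = 3; log2 fold change 0.51, adjusted p = 0.00046, limma), and CHORDC1, an HSP90 cochaperone, from 13.6 ± 1.41 to 25.9 ± 6.36 (0.85, adjusted p = 0.0021). In all 4 genes every HBBko library was above every WT library, but they are shown because they rose. The lines did not overlap for 63.6% of all tested genes, in either direction. HSPD1, the other list gene that held the element, overlapped between the lines (log2 fold change -0.02, adjusted p = 0.66, limma).

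In the ER list, 11 of 21 tested genes fell and 5 rose, against 27.1% and 29.0% of all tested genes. HSPA5 (BiP), the main ER chaperone, read 82.5, 77.7 and 69.5 scaled TPM in HBBko against 167, 162 and 176 in WT (log2 fold change -1.13 ± 0.06 SE, adjusted p = 5.3e-06, limma). CALR, a calcium-binding ER chaperone, fell from 768 ± 16.7 to 392 ± 11.4, SEL1L, of the ER degradation complex, from 70.9 ± 2.71 to 24.4 ± 3.75, and XBP1, a factor of the unfolded protein response, from 118 ± 2.86 to 61.8 ± 7.59 (SD, n = 3; -0.97, -1.51 and -0.93). The list's median of -0.26 was 0.05 under equal sums, where 8 fell and 9 rose, so the statement that holds under both scales is on these named genes, which fell under each.

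Proteasome subunits were higher as a list: 32 of 37 rose and 1 fell (PSME4, an alternative cap, at -0.29, which equal sums turned to 0.04), with a median log2 fold change of 0.26 and 36 rising under equal sums. Over all tested genes, 29.0% rose and 27.1% fell on the deposited scale. PSMA3, of the catalytic core, read 77.8, 77.3 and 83.1 scaled TPM in HBBko against 51.8, 51.1 and 48.7 in WT (0.64 ± 0.05 SE, adjusted p = 1.6e-05, limma), and PSMB2 rose from 31.1 ± 1.19 to 44.8 ± 1.45 (SD, n = 3; 0.51). Autophagy genes went the other way on the deposited scale, with 19 of 35 lower and 7 higher, but equal sums gave 6 lower and 17 higher. GABARAPL1, which coats autophagosomes, fell from 89.5 ± 2.96 to 45.1 ± 1.62 (-0.97, adjusted p = 2.8e-06), and ATG2B, which feeds lipid to them, from 62.5 ± 5.77 to 24.6 ± 0.949 (-1.31, adjusted p = 4.2e-06). MAP1LC3A of the same list rose from 16.4 ± 0.977 to 26.6 ± 1.24 (0.67, adjusted p = 5.1e-05, limma), without overlap. ATG4D and ATG9A overlapped between the lines and were not called (-0.02 and -0.10).

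**Figure D3:**
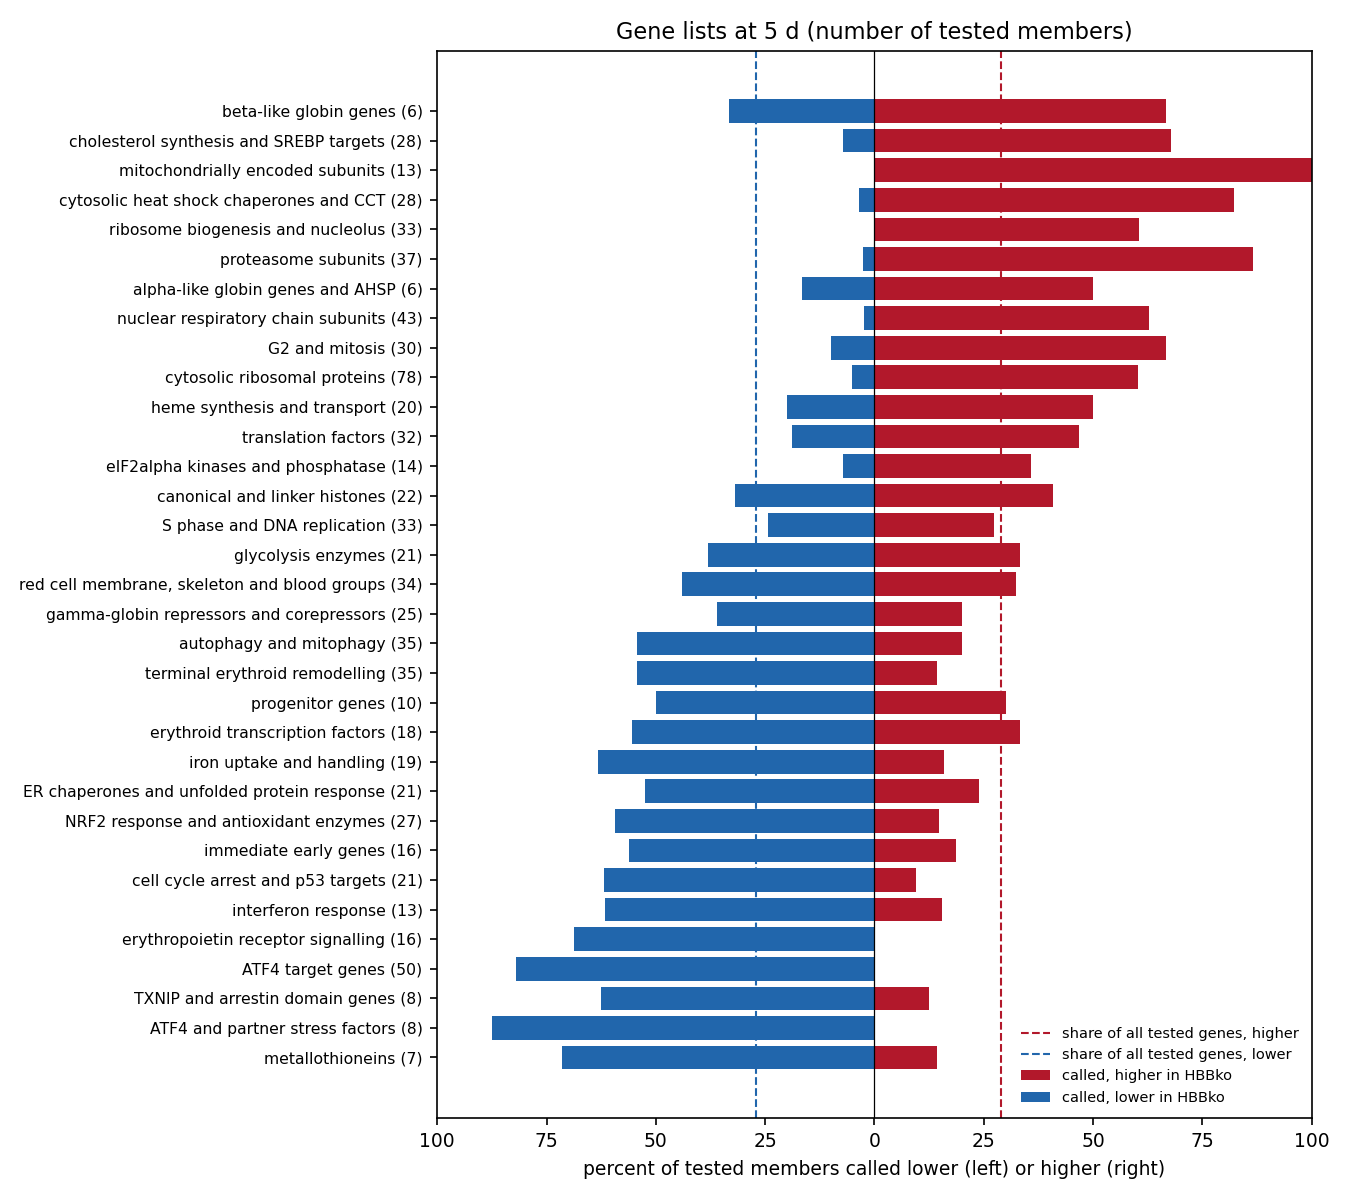
Percent of tested members called lower (blue, left) and higher (red, right) in HBBko at 5 d for each list with at least 6 tested members, ordered by median log2 fold change on the deposited scale, with the number tested in parentheses. Dashed lines mark the shares over all tested genes (27.1% lower, 29.0% higher). Lists past them include the mitochondrially encoded, proteasome and cytosolic chaperone lists on the right and the ATF4 lists on the left. Others pass them too, such as the ribosomal and G2 lists on the right and the iron and NRF2 lists on the left.

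HMOX1, heme oxygenase, which breaks heme down and is induced by free heme, was among the most reduced genes. It read 13.7, 15.2 and 10.4 scaled TPM in HBBko and 78.4, 106 and 110.1 in WT, 7.49-fold lower without overlap (log2 fold change -2.81 ± 0.15 SE, adjusted p = 4.7e-06, limma). The ferritin chains, which store iron and are raised by it through translation, were lower too: FTH1 read 6441, 6178 and 6394 against 11782, 11615 and 12501 (-0.92 ± 0.05 SE, adjusted p = 4.1e-06), and FTL read 7404, 7677 and 7325 against 11525, 12405 and 13025 (-0.72 ± 0.06 SE, adjusted p = 2.1e-05). The iron-sulfur cluster genes ISCU and GLRX5 fell from 201 ± 9.2 to 114 ± 1.06 and from 532 ± 17.2 to 339 ± 8.67 (SD, n = 3; -0.81 and -0.65). Of 19 iron genes, 12 fell and 3 rose with a median of -0.19, against 4 and 8 with a median of 0.14 under equal sums. Over all tested genes, 27.1% fell and 29.0% rose on the deposited scale.

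Within the NRF2 and antioxidant list, 16 of 27 genes fell and 4 rose, against 27.1% and 29.0% of all tested genes. The median log2 fold change was -0.27, and 0.07 under equal sums. PGD, of the pentose phosphate pathway, fell from 170.4 ± 5.42 to 82.5 ± 6.63 scaled TPM and GPX4, which reduces lipid peroxides, from 160.4 ± 10.8 to 78.1 ± 3.64 (SD, n = 3; -1.04 and -1.03). GPX1, the cytosolic glutathione peroxidase, rose from 24.6 ± 2.66 to 44.1 ± 3.25 (0.82, adjusted p = 8.6e-05, limma). The members moved in both directions, and the list is not described by 1 sign.

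Metallothioneins, small proteins that bind zinc and copper, were low in both lines and lower in HBBko. Of 7 tested genes of that list, 5 fell and 1 rose, against 27.1% and 29.0% of all tested genes. All 5 that fell encode metallothioneins. The zinc exporter SLC30A1, which responds to the same metals, rose from 46.8 ± 3.02 to 60.8 ± 2.99 scaled TPM (SD, n = 3; log2 fold change 0.37, adjusted p = 0.00094, limma). MT2A read 4.36, 6.28 and 3.21 in HBBko against 18.2, 20.5 and 22.1 in WT (4.39-fold lower, -1.95 ± 0.18 SE, adjusted p = 4.5e-05). MT1G read 2.55, 1.65 and 1.42 against 9.71, 7.44 and 15.4 (-2.01 ± 0.23 SE, adjusted p = 0.00017), and MT1X fell from 6.95 ± 1.63 to 1.90 ± 0.276 (-1.44). MT1E and MT1H lay under 1 in every HBBko library, near the pseudocount. Metallothionein genes are close copies, so their individual values are uncertain.

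The metal response core TGCACNC, sought on both strands, was held by 4 of 5 genes of that list in the promoter table (SLC30A1 among them), against 11.9% of all genes. The 250 bases before MT2A are shown because they hold 5 matches, which lie apart from each other along the window and are in capitals (chr16:56608334-56608583, plus strand, GRCh38.p14).
MT2A: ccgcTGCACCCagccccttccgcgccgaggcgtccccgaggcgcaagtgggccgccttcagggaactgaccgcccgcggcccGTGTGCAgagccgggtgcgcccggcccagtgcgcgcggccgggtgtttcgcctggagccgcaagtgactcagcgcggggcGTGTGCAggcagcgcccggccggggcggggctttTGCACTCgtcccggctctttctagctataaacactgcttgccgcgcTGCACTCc
The other elements sought were TCACNCCAC in the cholesterol list (1 of 22 genes, against 1.09% of all), TGACNNNGC in the NRF2 list (5 of 21, against 13.2%) and TTTGGCGC in the S phase list (3 of 27, against 0.681%).

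**Figure D4:**
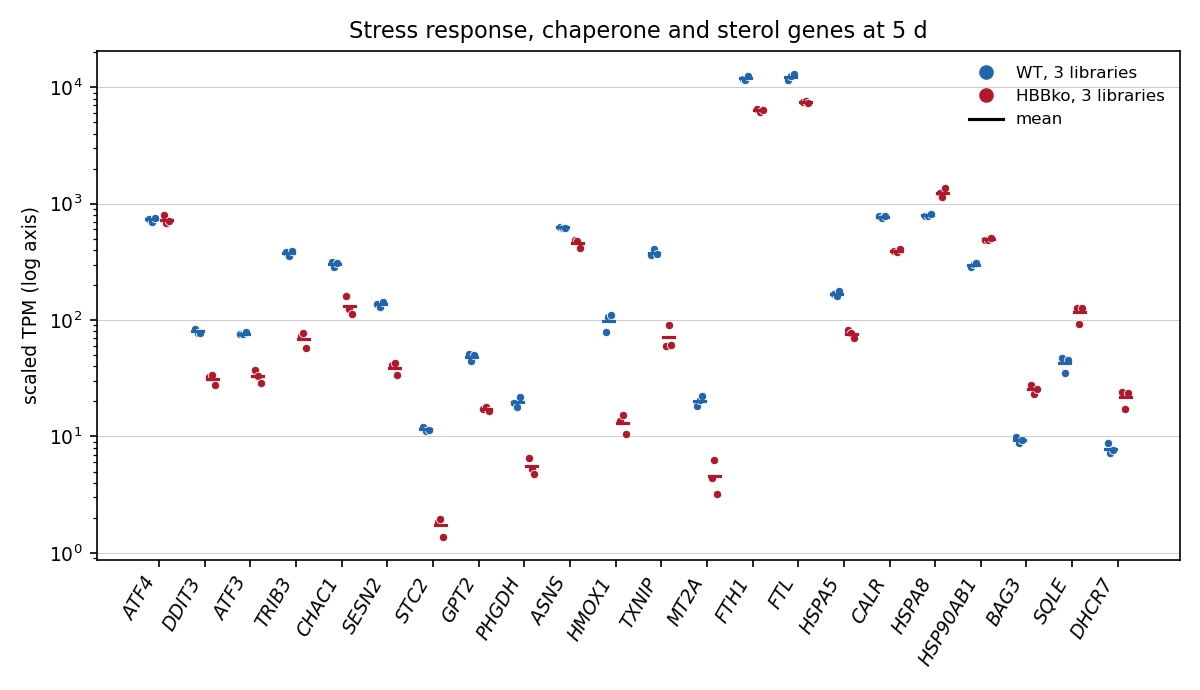
Scaled TPM (log axis) of 22 stress response, chaperone and sterol genes in each library at 5 d; points are libraries and bars are group means. ATF4 is level between the lines while its targets, HMOX1, TXNIP, MT2A, the ferritins and the ER chaperones are lower and HSPA8, HSP90AB1, BAG3, SQLE and DHCR7 are higher in all 3 HBBko libraries.

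Sterol synthesis genes rose together. Of 28 tested genes of cholesterol synthesis and SREBP control, 19 rose and 2 fell, against 29.0% and 27.1% of all tested genes. The median log2 fold change was 0.73, the highest of the lists with at least 6 tested members beside the beta-like globins. SQLE, squalene epoxidase, read 128, 93.4 and 128 scaled TPM in HBBko against 47.1, 34.8 and 45.3 in WT (2.74-fold higher, 1.43 ± 0.14 SE, adjusted p = 7.4e-05, limma). DHCR7, an enzyme of the late pathway, rose from 7.88 ± 0.814 to 21.7 ± 3.83 and MVK, of the early pathway, from 4.52 ± 0.384 to 12.4 ± 0.658 (SD, n = 3; 1.34 and 1.28). INSIG1, which holds SREBP in the ER and is itself its target, rose from 51.3 ± 4.57 to 113 ± 11 (SD, n = 3; 1.12). The genes that fell were SREBF2, the factor of the pathway (-0.26), and FDFT1 (-0.24), both of which turned under equal sums (0.08 and 0.10). Replicate 2 was the lowest library of both lines for SQLE and DHCR7.

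Mitochondrial transcripts were higher in HBBko. All 13 mitochondrially encoded subunits rose, with a median log2 fold change of 0.66 on the deposited scale and 0.99 under equal sums. Of all tested genes, 29.0% rose and 27.1% fell on the deposited scale. MT-CYB, of complex III, read 1053, 1223 and 1433 scaled TPM in HBBko against 736, 787 and 776 in WT (0.68 ± 0.10 SE, adjusted p = 5.0e-04, limma), and MT-ND6 of complex I read 804, 1057 and 1235 against 546, 614 and 599 (0.79 ± 0.13 SE, adjusted p = 0.0012). Their share of signal other than globin was 3.73%, 4.32% and 4.95% in HBBko and 2.74%, 2.95% and 2.88% in WT. The HBBko libraries were spread more widely than the WT libraries, and all lay above them. This share is also a measure of RNA quality and its part in other results was not tested. Of 43 nuclear respiratory chain genes, 27 rose and 1 fell (NDUFV2 at -0.12, turned to 0.21 by equal sums, a call lost without HBBko replicate 1 or WT replicate 1 at adjusted p 0.072 and 0.079), with a median of 0.21; ATP5MC1, of the ATP synthase ring, rose from 39.4 ± 3.12 to 77.2 ± 1.56 (SD, n = 3; 0.96).

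The protein synthesis lists leaned the same way, set beside 29.0% of all tested genes higher and 27.1% lower. Of 78 cytosolic ribosomal protein genes, 47 rose and 4 fell (RPS7, RPS27, RPL36 and FAU), with a median log2 fold change of 0.16, but quantile normalization gave 30 and 13 with a median of 0.07. RPL23 rose from 281 ± 11.1 to 488 ± 17.1 scaled TPM, while RPS7 fell from 34.5 ± 3.58 to 16.9 ± 3.55 and RPS27 from 30.8 ± 0.354 to 18.8 ± 1.74 (SD, n = 3; 0.79, -1.01 and -0.68). RPL36 and FAU fell by 0.49 and 0.27 on the log2 scale; under equal sums RPL36 no longer passed (-0.15, adjusted p = 0.16) and FAU turned to 0.07. Ribosomal protein genes have many processed pseudogenes, so their single values are uncertain. Of 33 ribosome biogenesis genes, 20 rose and 0 fell, with a median of 0.31; RRS1, an assembly factor, rose from 8.10 ± 0.704 to 13.7 ± 0.763 and POLR1A, the large subunit of RNA polymerase I, from 3.80 ± 0.125 to 6.22 ± 0.440. MYC, which drives such genes in many cells, read 104, 111 and 96.2 against 63.1, 65.0 and 61.7 (0.70 ± 0.06 SE, adjusted p = 2.2e-05, limma).

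The cell cycle lists are given by phase, and the difference between them was not tested. Shares over all tested genes were 29.0% higher and 27.1% lower on the deposited scale. Of 30 genes of G2 and mitosis, 20 rose and 3 fell, with a median log2 fold change of 0.19 (equal sums: 27 rose, 0 fell, median 0.53). Of 33 S phase genes 9 rose and 8 fell, with a median of 0.00 (equal sums: 27 rose, 1 fell, median 0.33). CDC25C, which starts mitosis, rose from 22.0 ± 0.319 to 37.4 ± 1.41 scaled TPM, CCNB1, its cyclin, from 165 ± 3.61 to 225 ± 5.74 and AURKA from 90.2 ± 2.96 to 122 ± 4.1 (SD, n = 3; 0.74, 0.45 and 0.43). The 3 that fell were KIF23 (-0.34), MKI67 (-0.30) and HMMR (-0.24), of which MKI67 and HMMR turned under equal sums (0.04 and 0.09) and KIF23 no longer passed (adjusted p = 0.97). E2F1, which drives S phase genes, fell from 168 ± 14.4 to 99.7 ± 7.1 (-0.75, adjusted p = 6.5e-05, limma), and CCNE1 rose from 68.2 ± 5.05 to 94.5 ± 9.34 (0.46, adjusted p = 0.0013). CDKN1A (p21), the arrest gene downstream of p53, read 4.71, 3.25 and 2.91 against 15.5, 14.4 and 17.5 (-1.88 ± 0.14 SE, adjusted p = 1.7e-05). TNFRSF10B, a death receptor, fell from 10.4 ± 0.466 to 3.77 ± 1.08 and GADD45B from 3.60 ± 0.836 to 1.09 ± 0.182 (-1.28 and -1.13). Of 21 arrest and p53 genes, 13 fell and 2 rose with a median of -0.29, against 7 and 7 with a median of 0.04 under equal sums; SESN2 is in this list and the ATF4 list.

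Histone genes changed one by one. HIST1H1C, a linker histone, read 322, 338 and 484 scaled TPM in HBBko against 64.5, 63.3 and 72.6 in WT (5.71-fold higher, log2 fold change 2.47 ± 0.14 SE, adjusted p = 4.9e-06, limma). HIST1H2BK and HIST1H2AC rose from 19.6 ± 3.94 to 61.5 ± 14.0 and from 4.42 ± 0.315 to 12.5 ± 1.91, while HIST1H4C and HIST1H1B fell from 14.8 ± 2.86 to 4.06 ± 0.77 and from 4.31 ± 0.844 to 1.14 ± 0.112 (SD, n = 3; 1.60, 1.31, -1.64 and -1.30). Of 22 histone genes, 9 rose and 7 fell, beside 29.0% and 27.1% of all tested genes, and under equal sums 13 rose and 6 fell. Histone genes are close copies and most of their mRNAs lack poly(A), on which the library kit selects, so levels across them are uncertain.

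Among the lists of erythroid maturation the counts depended on the scale. Over all tested genes, 29.0% rose and 27.1% fell on the deposited scale. Of 10 erythroid markers, 2 rose and 3 fell, against 8 and 0 under equal sums. Their summed level was 341103 to 355135 scaled TPM in HBBko and 316764 to 330894 in WT. Most of that sum was HBA1 and HBA2 (means 170543 and 160983 in HBBko, 161304 and 146819 in WT), which were not called. Of 20 heme synthesis and transport genes, 10 rose and 4 fell, with a median log2 fold change of 0.15, against 17 and 1 under equal sums. FLVCR1, a heme exporter, rose from 1.43 ± 0.368 to 5.15 ± 1.13 and TMEM14C, which carries the heme precursor into mitochondria, from 243 ± 24.4 to 368 ± 19.3, while TSPO2 fell from 188 ± 7.78 to 126 ± 7.55 (SD, n = 3; 1.33, 0.60 and -0.58). Of 34 membrane and blood group genes, 11 rose and 15 fell (21 and 3 under equal sums). ADD2, of the membrane skeleton, and GYPB, glycophorin B, rose from 224 ± 13.9 to 359 ± 22.6 and from 764 ± 20.2 to 1144 ± 12.2 (0.68 and 0.58), and CD44, which is lost as red cells mature, fell from 60.8 ± 1.72 to 34.6 ± 1.32 (-0.80, adjusted p = 6.2e-06, limma).

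Of 35 terminal remodelling genes, 5 rose and 19 fell with a median log2 fold change of -0.17, against 17 and 9 with a median of 0.16 under equal sums. Over all tested genes, 29.0% rose and 27.1% fell on the deposited scale. TRIM10 read 284, 296 and 357 scaled TPM in HBBko against 129, 121 and 121 in WT (2.52-fold higher, 1.32 ± 0.08 SE, adjusted p = 7.1e-06, limma), and TMCC2 read 80.4, 75.1 and 81.5 against 206, 168 and 196 (-1.25 ± 0.07 SE, adjusted p = 6.0e-06). Among 10 progenitor genes, 3 rose and 5 fell (5 and 3 under equal sums): LMO4 fell from 53.4 ± 0.674 to 12.6 ± 1.57 and CDK6, a kinase of G1, from 7.09 ± 1.28 to 1.24 ± 0.0785 (SD, n = 3; -2.01 and -1.84).

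Genes of erythropoietin receptor signalling, both components of the pathway and its targets, were more often called lower than higher. Of 16 tested, 11 fell and 0 rose, against 27.1% and 29.0% of all tested genes, with a median log2 fold change of -0.39 (equal sums: 7 fell, 2 rose, median -0.10). OSM, a cytokine target of STAT5, fell from 29.9 ± 2.41 to 13.9 ± 1.39 scaled TPM, PIM1, a survival kinase, from 817 ± 46.5 to 507 ± 10.8, CISH, a feedback inhibitor, from 232 ± 15.1 to 143 ± 6.26 and BCL2L1, which keeps late erythroblasts alive, from 585 ± 30.8 to 358 ± 4.94 (SD, n = 3; -1.05, -0.69, -0.69 and -0.71). The 3 values of each line lay apart for all 4, as they did for 63.6% of all tested genes. Immediate early genes were mixed, with 9 of 16 lower and 3 higher (5 and 5 under equal sums): JUN, FOSL2 and EGR1 fell by 1.41, 1.24 and 1.09 on the log2 scale, and DUSP6, a phosphatase of ERK, rose from 4.83 ± 0.295 to 12.8 ± 2.42 (1.23, adjusted p = 7.4e-05, limma).

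TXNIP, which blocks thioredoxin and glucose uptake and follows glucose supply, read 59.6, 91.3 and 61.6 scaled TPM in HBBko against 359, 411 and 368 in WT (5.35-fold lower, log2 fold change -2.43 ± 0.14 SE, adjusted p = 6.2e-06, limma). Its relative ARRDC4 fell from 12.7 ± 0.669 to 4.79 ± 0.738 and KLF6 of the same list from 33.6 ± 3.07 to 16.0 ± 3.44 (SD, n = 3; -1.25 and -1.04), and 5 of 8 list genes fell and 1 rose. PFKFB3, an activator of glycolysis, fell from 11.7 ± 0.407 to 3.87 ± 0.945 (-1.40, adjusted p = 5.1e-05), while the 21 glycolysis genes as a list had 7 higher and 8 lower (12 and 6 under equal sums). Shares over all tested genes were 29.0% higher and 27.1% lower on the deposited scale.

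Large decreases were also found in genes chosen by the size of the change alone. PLS3, an actin-bundling protein, read 0.648, 0.552 and 0.556 scaled TPM in HBBko against 19.5, 16.3 and 17.0 in WT (30.1-fold lower, log2 fold change -3.55 ± 0.09 SE, adjusted p = 3.4e-07, limma), the largest log2 fold change in size on the scale used. RBMS1, an RNA-binding protein, read 0.340, 0.695 and 0.622 against 7.63, 7.53 and 7.26 (-2.46). ASS1, of arginine synthesis, read 12.2, 7.96 and 7.28 against 79.2, 72.4 and 87.5 (8.70-fold lower, -3.02), and TMSB4X, which binds free actin, read 56.2, 51.1 and 45.9 against 314, 236 and 320.0 (5.68-fold lower, -2.47). CLCF1, a cytokine, and TNNI3, cardiac troponin I, fell 9.53- and 7.73-fold from 9.84 ± 0.266 and 14.9 ± 4.99 (SD, n = 3). AC018738.1 was listed at 0 in all 3 HBBko libraries and at 10.1, 7.77 and 9.13 in WT, and AC105052.3 read 0.808, 0.226 and 0 against 8.13, 6.59 and 6.30.

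Upward, SSUH2 read 69.7, 57.3 and 62.3 scaled TPM in HBBko against 11.2, 7.80 and 8.90 in WT (6.78-fold higher, log2 fold change 2.65 ± 0.12 SE, adjusted p = 2.5e-06, limma). RUNX1T1 (ETO), a corepressor, read 14.6, 16.5 and 11.9 against 2.08, 2.34 and 2.07 (6.62-fold higher, 2.27). TSPAN32, a tetraspanin of blood cells, rose from 26.2 ± 5.3 to 97.8 ± 9.64 (SD, n = 3; 3.73-fold higher, 1.87). The transcripts AC010323.1, AC016629.1 and AC018638.3 completed the 12 largest increases at 5.20 ± 1.46, 5.72 ± 3.49 and 5.13 ± 3.04 in HBBko (SD, n = 3), each listed at 0 in at least 1 WT library.

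Markers of other blood and tissue cells were at or near 0 in some lists and at measurable levels in others. No lymphoid or stromal and endothelial marker passed the filter, and their sums were at most 0.870 and 0.828 scaled TPM in any library. Of 12 myeloid markers 1 passed, CD68 (5.72 ± 1.42 in HBBko against 8.77 ± 1.77 in WT, SD, n = 3), whose groups overlapped and whose adjusted p of 0.025 in limma rose to 0.066 without HBBko replicate 2, 0.085 without HBBko replicate 3, 0.074 without WT replicate 1 and 0.082 without WT replicate 2; ELANE, S100A8 and S100A9 were listed at 0 throughout. Both megakaryocyte markers that passed, of 10, rose: TUBB1 from 25.3 ± 1.36 to 33.1 ± 3.65 and GP1BB from 1.48 ± 0.265 to 3.21 ± 0.831, while PF4 and PPBP were listed at 0. The summed mast cell, basophil and eosinophil markers stood at 55.2 to 76.8 in HBBko and at 55.3 to 67.5 in WT. Of 12 such markers 5 passed and PRG2 rose from 19.1 ± 1.08 to 31.5 ± 5.94. Their part in the results above was not tested.

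Whether the difference between the lines depended on the stage was asked with the interaction of genotype and stage over 5 d and 48 h. It passed an adjusted p under 0.05 in limma for 2937 of 11407 genes (25.7%), with the 5 d difference more toward higher in 1375 and more toward lower in 1562. HBB did not pass: its log2 fold change was -2.26 at 48 h and -2.63 at 5 d (difference -0.37 ± 0.24 SE, adjusted p = 0.28). HBG2 went from 1.53 to 3.43 (difference 1.91 ± 0.28 SE, adjusted p = 0.00012), a call lost under quantile normalization (0.44, adjusted p = 0.23), and HBG1 from 1.72 to 3.42 (1.70 ± 0.24 SE, adjusted p = 7.9e-05). Gamma-globin was 22.4% ± 0.426 of beta-like signal in HBBko at 48 h and 40.9% ± 2.3 at 5 d (SD, n = 3), against 2.03% ± 0.147 and 1.04% ± 0.231 in WT. The MYB difference was -0.11 at 48 h and -0.24 at 5 d, and the change between stages did not pass (-0.12 ± 0.08 SE, adjusted p = 0.30; equal sums 0.04).

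HMOX1 turned sign between the stages. It was higher in HBBko at 48 h (log2 fold change 1.22 ± 0.15 SE) and lower at 5 d (-2.81 ± 0.15 SE), a difference of -4.03 ± 0.22 SE (adjusted p = 1.2e-08, limma). ATF4 was lower at 48 h (-0.56) and level at 5 d (difference 0.55 ± 0.13 SE, adjusted p = 0.0054). The ATF4 target list had a median of -0.63 at 48 h and -0.56 at 5 d, and its members passed the interaction in both directions, 13 toward higher and 9 toward lower of 50. In some other lists the members that passed went mostly one way, beside 12.1% toward higher and 13.7% toward lower of all genes tested: 18 of 30 G2 and mitosis genes and 10 of 21 heme genes toward higher with 0 toward lower, 16 of 28 NRF2 and antioxidant genes toward lower with 4 toward higher, 7 of 9 metallothionein list genes toward lower with 1 toward higher, and 10 of 22 ER genes toward lower with 1 toward higher. Other lists went both ways, such as terminal remodelling (7 toward higher and 9 toward lower of 35), translation factors (7 and 4 of 32), iron genes (4 and 7 of 19), gamma-globin repressors (3 and 3 of 25) and progenitor genes (2 and 2 of 12).

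**Figure D5:**
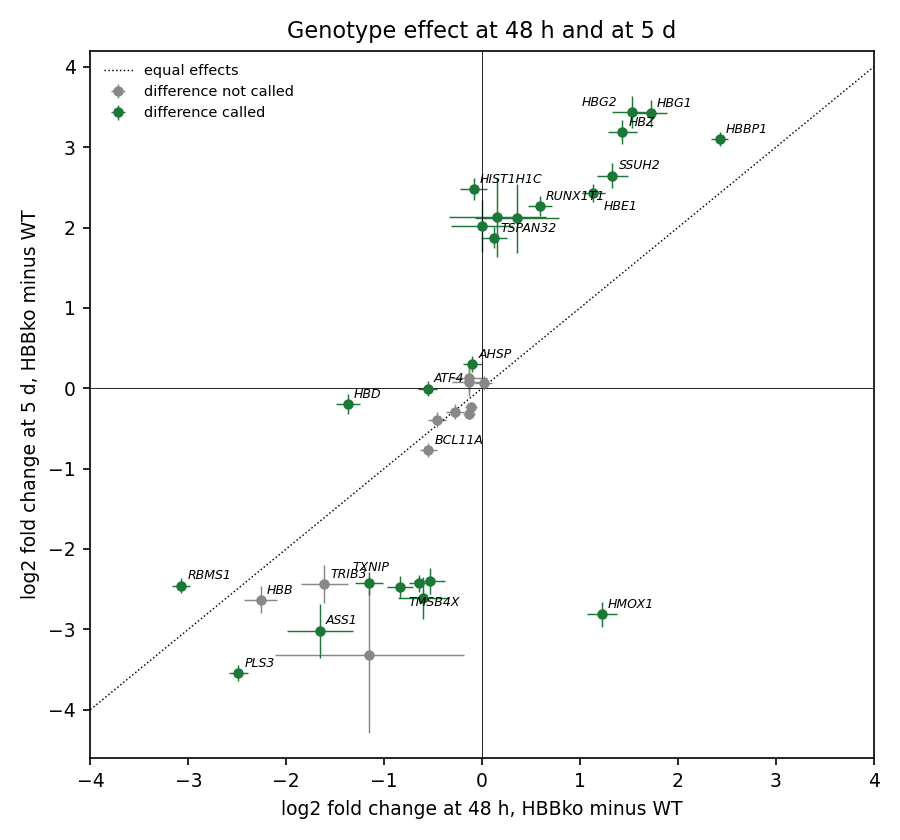
Log2 fold change, HBBko minus WT, at 48 h (horizontal) and at 5 d (vertical) for the 35 genes always named or among the largest changes; bars are standard errors of the fit of all 18 libraries, green points passed the interaction test and the dotted line marks equal effects. HMOX1 lies alone at the lower right (1.22 at 48 h, -2.81 at 5 d), and the gamma-globin genes lie above the line.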

How the data were processed

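The 6 libraries at 5 d of the HUDEP-2 lines, 3 HBBko and 3 WT, were grouped by their titles. Per the labels' protocols, total RNA from triplicate cultures was made into TruSeq v2 libraries, and kallisto, sleuth and the hg38 build are listed, per the submitters' processing notes, with no version. The authors deposited a signal per gene symbol that the table calls TPM, but library sums above 1000000 show a further scaling that is not given in the sources used here. The plan had taken it for plain TPM; the test was kept. Its columns name the lines thal and wen, which were read as HBBko and WT from the names, with HBB as a check. The authors' deposited tables give a log2 fold change, p value and q value per gene, used here for counts alone. Read counts were not used, so depth is unknown.

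Genes that reached 1 scaled TPM in 3 or more of the 6 libraries were fitted as log2(scaled TPM + 1) in limma 3.58.1 (R 4.3.3; lmFit, eBayes with trend, 4 residual degrees of freedom), two-sided, with Benjamini-Hochberg adjustment over all tested genes. Fold changes between means are ratios of scaled TPM; log2 fold changes come from the fit and understate the change of low genes. The interaction with stage used all 18 libraries (12 residual degrees of freedom). Shares were compared by exact permutation. The script was tested on simulated data. The comparison, the 34 gene lists and 6 marker lists and the named genes were chosen with earlier results of these data known. Some genes are in several lists, such as TRIB3, SESN2, FTH1, ATF3 and MXI1, so the counts of different lists are not separate. Named are 17 genes chosen for their role, the 12 largest increases and 12 largest decreases without overlap and with a group mean of at least 5, up to 5 called and 2 uncalled genes per list, and genes with a printed promoter (1 gene that the rule names is not reported here); HSF1, PSME4, FDFT1, SREBF2, NDUFV2, SLC30A1, MKI67, KIF23, HMMR and FAU were named after their values were seen. Deviations from the group means correlated at 0.172, 0.218 and 0.152 for the same replicate number across lines. For different numbers they correlated at -0.150 to -0.024. Deviations cancel out within a line, so these correlations are not independent of each other. Whether the numbers pair the libraries is not known. The main fits and the permutations were unpaired, and the replicate number entered only as an alternative setting. Gene positions and promoter sequences are from RefSeq (GRCh38.p14).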

Additional observations from a re-analysis of the deposited data

Results flagged for a closer look

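For 24 genes the difference between the lines at 5 d was not the same as at 48 h by the interaction of genotype and stage (limma over all 18 libraries, Benjamini-Hochberg adjusted p under 0.05), among the 35 genes always named or with the largest changes. These genes were picked partly for a large change at 5 d, which favors a gap from 48 h.

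The fetal and embryonic globins gained at 5 d: the log2 difference (5 d minus 48 h) was 1.91 for HBG2, 1.70 for HBG1, 1.76 for HBZ, 1.29 for HBE1 and 0.67 for HBBP1. HBD moved by 1.17, from -1.37 at 48 h to -0.20 at 5 d. AHSP moved by 0.40 and ATF4 by 0.55. The HBG2 value was 0.44 (adjusted p = 0.23) under quantile normalization.

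Upward too moved HIST1H1C by 2.56, TSPAN32 by 1.75, RUNX1T1 by 1.68 and SSUH2 by 1.32. HIST1H1C and TSPAN32 had shown little difference at 48 h (-0.09 and 0.12). AC018638.3 moved by 2.02, AC010323.1 by 1.97 and AC016629.1 by 1.76, all at low levels. RBMS1 moved by 0.62, since it was more reduced at 48 h (-3.07) than at 5 d.

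HMOX1 moved by -4.03 and changed sign between the stages. AC105052.3 moved by -2.01, TNNI3 by -1.86, CLCF1 by -1.78, TMSB4X by -1.64, ASS1 by -1.36, TXNIP by -1.27 and PLS3 by -1.06. All of these were lower in HBBko at 5 d. The calls of AHSP, AC010323.1, AC016629.1 and ASS1 had adjusted p of 0.041 to 0.046 and were lost when some single libraries were left out.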

How the results depend on the processing

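HBB kept its direction and its call under every setting run, between -2.65 and -2.60 (log2) when 1 library was left out, but its size fell to -2.30 under equal sums and to -1.42 under quantile normalization. The number of genes past a 2-fold change was 416 on the scale reported, 676 with a pseudocount of 0.1 and 155 with one of 5; a larger pseudocount shrinks the fold of low genes by construction. Rescaling to equal sums gave 6649 genes higher and 1101 lower, and 256 of 4431 genes called on both scales had the opposite sign. Leaving out 1 library gave 5065 to 5421 calls. The interaction with stage gave 2937 calls, 4608 with array quality weights (the cause was not tested) and 2300 to 2760 with 1 library left out. The share of HBG2 in gamma-globin differed by 0.0497 percentage points, and by -0.113 to 0.245 with 1 library left out.

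The replicate number was also used as a block, since the numbers may pair the libraries. With it 6339 genes were called against 5945, and the block changed no call among 150 of the genes named. Equal sums turned the sign of 16 of them, to 0.14 for HBD, 0.33 for ATF4, 0.067 for MYB, 0.040 for ZBTB7A, 0.014 for EIF2AK1, 0.061 for IGF2BP3, 0.049 for ARID3A, 0.081 for SLC1A5, 0.19 for HSF1, 0.096 for FDFT1, 0.079 for SREBF2, 0.039 for PSME4, 0.21 for NDUFV2, 0.039 for MKI67, 0.091 for HMMR and 0.070 for FAU. Another 8 lost their call there and 4 gained one. The same scale turned the stage difference of MYB to 0.039. Equal sums without globins put ATF4 at 0.017, and leaving out 1 library put it between -0.064 and 0.037. Quantile normalization put AHSP at -0.040. Median-of-ratios scaling and both pseudocounts changed no call among these genes.

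The reads behind each library are unknown, so a value near 0 cannot be given a floor, and fold changes of genes near the pseudocount are imprecise. With 3 libraries a line, exact tests cannot pass 0.05.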
